A study of Homo sapiens with 2 samples.

Results

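The expression of 34 neuronal and synaptic genes, out of 19061 genes that could be named on the arrays, was examined in SBC-3 cells, a cell line of small-cell lung cancer (SCLC). The genes were chosen by function, as neuronal genes known as or related to targets of the repressor REST, and they extend a shorter REST list chosen from its high ratio in this same comparison. The genes that stood highest in that shorter list, VGF among them, are not among the 34 and are given below in a second list. Values of this comparison were thus known when the genes were divided between the lists. The ratios below are therefore a description of the chosen genes, and no test of them was made. All 34 genes had a named probe.

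The study asked which transcripts differ after depletion of HOTAIR, a long noncoding RNA. Total RNA of SBC-3 cells transfected with the siRNA called #1 siHOTAIR, and of control SBC-3 cells transfected with siGFP, was labelled with Cy3 and hybridized to 1 one-colour Agilent array per condition. Both conditions carried an siRNA, and of the HOTAIR siRNAs of the study only #1 siHOTAIR was hybridized. Neither condition was replicated, and the siRNA, the culture and the array cannot be told apart.

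REST is a zinc finger repressor that keeps neuronal genes silent outside neurons. It binds the RE1 element, which is made of a left and a right half-site, and brings in the corepressors CoREST and SIN3A with the histone deacetylases and the demethylase LSD1. HOTAIR is known to bind the complex of LSD1, CoREST and REST through one of its ends, and SCLC cells often express neuronal genes.

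RE1 half-sites were looked for in the promoters of the genes, from 250 bases before to 50 bases after the transcription start as given by RefSeq for GRCh38.p14. Promoters were at hand for 23 of the genes, 41 in all, and those of the other 11 genes were not analysed here. The left half-site CAGCACC was present in 4 of the 41 promoters on either strand (9.76%), against 7.75% of all 35116 promoters. The right half-site GGACAGC was present in 3 (7.32%), against 6.03% of all promoters. Both half-sites in this order on one strand, at most 20 bases apart, were present in 2 of the 41 promoters, those of GRIA2 and UNC13A, and in 41 of all 35116 promoters (0.117%). In the GRIA2 promoter the half-sites lay 2 bases apart, as in the usual RE1 element. A pair spaced by 2 bases with a single mismatch was present in the SYN1 promoter and in 26 of all promoters (0.0740%). The mismatch is C7T, counted from the 5′ end of GGACAGC.

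These 3 promoters are shown because they hold a pair of half-sites, exact in GRIA2 and UNC13A and with a single mismatch in SYN1. The half-sites are in capitals and each sequence is written in the direction of its gene. A pair is placed by its first base in that direction, also where it lies on the opposite strand. The UNC13A pair, from base 242 to base 263 of the window, spans the transcription start. A match is a description of the letters in this window, and RE1 elements also lie outside promoters.
GRIA2 promoter, chr4:157220369-157220668, plus strand, pair on the opposite strand beginning 228 bases before the start and a further right half-site: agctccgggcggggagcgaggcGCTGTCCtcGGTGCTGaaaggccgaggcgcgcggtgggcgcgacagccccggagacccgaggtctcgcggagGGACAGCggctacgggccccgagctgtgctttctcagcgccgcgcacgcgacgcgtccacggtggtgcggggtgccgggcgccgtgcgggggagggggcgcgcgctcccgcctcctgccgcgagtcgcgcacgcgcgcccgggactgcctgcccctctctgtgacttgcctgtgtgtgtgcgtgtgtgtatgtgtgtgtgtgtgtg
UNC13A promoter, chr19:17688305-17688604, minus strand, pair 8 bases apart on the opposite strand beginning 9 bases before the start: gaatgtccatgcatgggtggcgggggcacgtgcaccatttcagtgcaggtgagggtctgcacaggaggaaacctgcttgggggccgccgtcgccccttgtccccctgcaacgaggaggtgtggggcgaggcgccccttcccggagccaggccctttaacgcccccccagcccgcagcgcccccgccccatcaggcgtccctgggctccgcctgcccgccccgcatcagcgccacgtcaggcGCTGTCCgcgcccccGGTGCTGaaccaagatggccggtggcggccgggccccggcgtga
SYN1 promoter, chrX:47619808-47620107, minus strand, pair on the same strand beginning 231 bases before the start, right half-site with C7T: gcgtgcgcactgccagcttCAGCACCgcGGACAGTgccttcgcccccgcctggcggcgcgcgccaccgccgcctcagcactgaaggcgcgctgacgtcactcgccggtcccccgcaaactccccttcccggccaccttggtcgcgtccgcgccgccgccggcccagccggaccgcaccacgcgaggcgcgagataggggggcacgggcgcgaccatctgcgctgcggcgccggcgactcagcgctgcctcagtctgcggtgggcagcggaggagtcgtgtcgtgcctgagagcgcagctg

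Of these genes, the synaptic vesicle gene SYN1 had signal well above background in both conditions. GRIA2 and UNC13A were well above background on neither array, as were SYT4, whose promoter held a left half-site alone, and GAP43, whose promoter held a right half-site alone. Of all 23 genes with promoters at hand, 14 were detected and 9 were not. A relation between half-sites and detection was not tested.

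Signals are processed intensities of the scanner software, and each log2 ratio is that of #1 siHOTAIR-transfected over siGFP-transfected cells after each array was set against its own 75th percentile. A probe was called well above background when at least 50% of its spots were, and a gene was read from its probe with the highest mean signal and called detected when this probe was well above background on at least 1 array. The error given is a measurement SD, on the log2 scale, from the spread of repeated spots within an array, and it does not cover differences between cultures or arrays. Of the named genes, 64.5% were detected in #1 siHOTAIR-transfected and 66.9% in siGFP-transfected cells. HOTAIR itself, the targeted RNA, was read from 1 spot with a signal of 108 in #1 siHOTAIR-transfected and 244 in siGFP-transfected cells (log2 ratio -1.22, measurement SD 0.19). The ratio depended on the background correction. It was -0.76 with normexp and an offset of 50 and -0.73 with the uncorrected signal, both less than 2-fold. The first rows of the array, a block with 37.5% of all spots, contained 38.2% of the spots well above background, with 56.0% of those that differed 2-fold or more towards #1 siHOTAIR and 45.2% of those that differed as much towards siGFP. The median log2 ratio of the spots was 0.01 both inside and outside this block. The neuronal genes had 77 spots, of which 28 lay in this block, and none was marked as an outlier.

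The identity of the cells was read from marker genes. Of 9 neuroendocrine SCLC markers, 4 were detected, namely DLL3 and NEUROD1 on both arrays and CHGA and NCAM1 in #1 siHOTAIR-transfected cells alone, whereas INSM1, DDC, GRP and SYP were among those well above background on neither array. The NCAM1 probe averaged only 25.5 in #1 siHOTAIR-transfected cells, below the lowest spot well above background on that array (37.3). The other NCAM1 probes were well above background on neither array. NEUROD1, a neurogenic transcription factor, read 213 in #1 siHOTAIR-transfected and 372 in siGFP-transfected cells (log2 ratio -0.85). Of 4 markers of non-neuroendocrine SCLC, YAP1, REST and HES1 were detected, and YAP1 read 6522 and 6750. Of 6 glial markers, only a MOG probe was detected, at 311 and 318, and GFAP, AQP4, MBP and SOX10 were among those not detected. Of other cell types, 4 of 5 epithelial, 2 of 5 fibroblast and 2 of 4 leukocyte markers were detected, and the log2 ratios of those measured in both conditions ran from -0.44 for KRT18 to 0.96 for COL1A1. The part of any marker in the ratios of the neuronal genes was not tested.

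Most of the neuronal genes that could be measured read within 0.5 of each other on the log2 scale in the conditions, as RNA of whole cultures, in which fewer expressing cells and less RNA per cell cannot be told apart. Of the 34 genes, 21 (61.8%) were detected, 19 of them on both arrays, and 13 were well above background on neither array. The same share among all named genes was 68.2%. The log2 ratios of the 21 detected genes ran from -0.44 to 1.05 with a median of 0.08, against a median of 0.02 over all 13005 detected genes, with dim signals at their own level. Of the 21, 18 (85.7%) lay within 0.5 of 0, against 78.6% of all detected genes. The log2 ratio was above 0 for 13 of the 21 (61.9%), against a background of 52.3%.

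A difference of at least 2-fold towards #1 siHOTAIR was read in 1 gene, GDAP1, against a background of 2.72% of all detected genes. None was at least 2-fold lower, against a background of 3.39%. By more than 2 measurement SDs, 8 of the 21 were higher, namely CPLX1, SV2A, NEFM, NEFH, STMN3, BDNF, BEX1 and GDAP1, against a background of 28.2%. ENO2 and MAPT were lower by more than 2 measurement SDs, 2 genes of the 21, against a background of 24.8%. Of the 16 detected genes with 2 spots on each array, 5 had both spots of #1 siHOTAIR above both of siGFP, against a background of 39.1%, and 4 had both below, against 32.4%. These counts were made after scaling, and the 5 genes were CPLX1, SV2A, NEFM, NEFH and GDAP1 and the 4 were ENO2, MAPT, KIF1A and INA. The genes differed among themselves, with higher and lower signals within the same functional group.

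**Figure D1:**
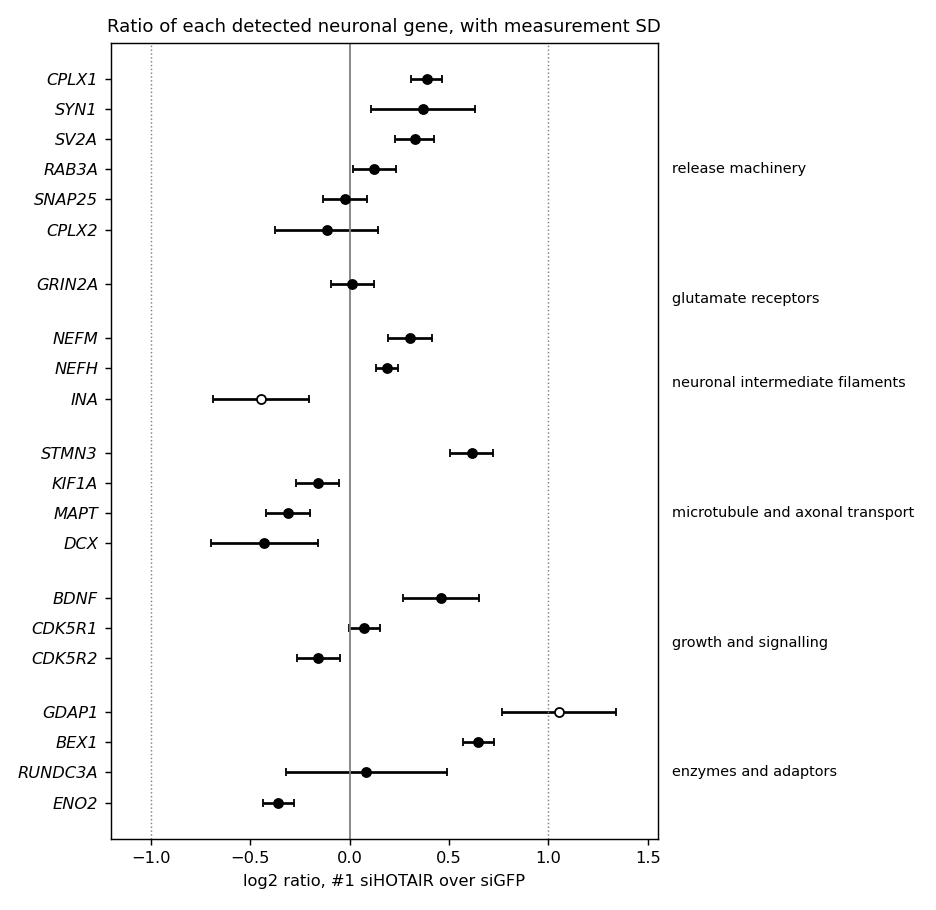
Log2 ratio of #1 siHOTAIR-transfected over siGFP-transfected cells on the horizontal axis for each of the 21 detected neuronal genes, grouped by function. Bars are the measurement SD from repeated spots of 1 array per condition, open points mark genes well above background on 1 array alone, and dotted lines mark 2-fold. GDAP1 alone reaches the dotted line at 1, and each of the groups with 3 or more detected genes has points on both sides of 0.

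The machinery of transmitter release fuses synaptic vesicles with the presynaptic membrane. Of its 10 genes, 6 were detected, all on both arrays, with a median log2 ratio of 0.23. None differed 2-fold. CPLX1, complexin 1, which binds the assembled SNARE complex and holds vesicles ready for release, had spots of 871 and 997 in #1 siHOTAIR-transfected and 668 and 712 in siGFP-transfected cells. The spots of the conditions did not overlap, and the log2 ratio was 0.39 (measurement SD 0.08). SV2A, a glycoprotein of the vesicle membrane and the binding site of levetiracetam, read 381 and 347 in #1 siHOTAIR-transfected and 301 and 261 in siGFP-transfected cells, again without overlap (log2 ratio 0.33, measurement SD 0.10). A second SV2A probe with 1 spot read 89.2 and 41.4, a log2 ratio of 1.06 (measurement SD 0.30), higher in the same direction.

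The other detected release genes overlapped between the conditions. RAB3A, the small GTPase of synaptic vesicles, read 200 and 207 in #1 siHOTAIR-transfected and 161 and 202 in siGFP-transfected cells (log2 ratio 0.13). SNAP25, the SNARE protein of the presynaptic membrane, read 292 and 308 against 305 and 285, and its log2 ratio was -0.02 (measurement SD 0.11). CPLX2, complexin 2, read 39.2 and 56.9 against 43.6 and 56.3, a log2 ratio of -0.11 (measurement SD 0.26), and a second CPLX2 probe was well above background on neither array. SYN1, synapsin 1, which tethers vesicles to the actin cytoskeleton, had a log2 ratio of 0.37 (measurement SD 0.26). Its spots disagreed within each array, at 123 and 26.1 in #1 siHOTAIR-transfected and 107 and 16.8 in siGFP-transfected cells, and only the brighter spot was well above background. Both SYN1 spots lay in the first block of rows. The remaining 4 genes, SYN2, the calcium sensor SYT1, its relative SYT4, and the priming factor UNC13A, were well above background on neither array.

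Among the glutamate receptors, 1 of 3 genes was detected. GRIN2A, a subunit of the NMDA receptor, read 255 and 245 in #1 siHOTAIR-transfected and 241 and 238 in siGFP-transfected cells (log2 ratio 0.01, measurement SD 0.11). This probe was designed on 1 of the GRIN2A transcripts, and the other 2 GRIN2A probes were well above background on neither array. GRIN1, the obligatory NMDA receptor subunit, and GRIA2, the AMPA receptor subunit that limits calcium entry, were detected on neither array.

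Neuronal intermediate filaments give axons their calibre, and 3 of the 4 genes were detected. NEFM, the medium neurofilament chain, read 250.7 and 255 in #1 siHOTAIR-transfected and 209 and 188 in siGFP-transfected cells (log2 ratio 0.30, measurement SD 0.11). NEFH, the heavy chain, read 2240 and 2337 against 1944 and 1940, a log2 ratio of 0.19 (measurement SD 0.06). In both genes the spots of the conditions did not overlap, but a second NEFH probe with 1 spot read 73.9 and 93.1, in the opposite direction (log2 ratio -0.38, measurement SD 0.31). INA, alpha-internexin, was well above background in siGFP-transfected cells alone, at 43.9 and 36.3, against 29.9 and 30.8 in #1 siHOTAIR-transfected cells. With its #1 siHOTAIR signal set at the lowest signal well above background on that array (37.3), INA was 1.11-fold lower. NEFL, the light chain with which the other neurofilament chains assemble, was detected on neither array.

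The genes of microtubules and axonal transport had a median log2 ratio of -0.23 over the 4 detected of 6. STMN3, a stathmin that binds tubulin, stood apart from the others, with a single spot of 1077 in #1 siHOTAIR-transfected and 681 in siGFP-transfected cells (log2 ratio 0.61, measurement SD 0.11). The remaining detected genes had lower signals. MAPT, the microtubule-associated protein tau, read 180 and 171 against 217 and 205, and the log2 ratio was -0.31 at each spot and in the mean (measurement SD 0.11). KIF1A, the motor that carries synaptic vesicle precursors, read 197 and 178 against 193 and 214. Its spots overlapped before scaling and not after it, the spot ratios were -0.01 and -0.31, and their mean was -0.16 (measurement SD 0.11). DCX, doublecortin, a microtubule protein of migrating neurons, read 60.2 and 10.3 against 60.2 and 17.5. The brighter DCX spot, the only one well above background, had a log2 ratio of -0.05, and the mean ratio of -0.43 (measurement SD 0.27) came from the dimmer one. A second DCX probe was well above background on neither array. MAP2, of dendrites, and STMN2, of growth cones, were detected on neither array.

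Of the genes of growth and signalling, BDNF, a neurotrophin, read 169 in #1 siHOTAIR-transfected and 119 in siGFP-transfected cells at a probe with 1 spot (log2 ratio 0.46, measurement SD 0.19). A second BDNF probe had the opposite direction in its mean (log2 ratio -1.05). Its spots read 8.03 and 10.04 against 42.9 and 7.59, and only the spot of 42.9 was well above background. CDK5R1, which encodes the p35 activator of the kinase CDK5, read 460 and 410 against 429 and 371, overlapping between the conditions (log2 ratio 0.08, measurement SD 0.08). CDK5R2, the related activator p39, read 364 and 393 at 1 spot, a log2 ratio of -0.16 (measurement SD 0.11). GAP43, a protein of growth cones, and both RNA-binding genes, ELAVL3 and ELAVL4, which stabilize neuronal transcripts, were detected on neither array.

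The last group holds enzymes and adaptors, 4 of 5 of which were detected. BEX1, a small adaptor of neurotrophin receptor signalling, read 3761 in #1 siHOTAIR-transfected and 2327 in siGFP-transfected cells at 1 spot, the highest log2 ratio among the neuronal genes measured on both arrays (0.65, measurement SD 0.08). ENO2, neuron-specific enolase, a glycolytic enzyme and clinical marker of SCLC, went the other way. It read 620 and 621 against 765 and 775, without overlap, and its log2 ratio was -0.36 (measurement SD 0.08). RUNDC3A, a RUN domain adaptor, read 41.5 and 37.9 at 1 spot (log2 ratio 0.08, measurement SD 0.40). UCHL1, a ubiquitin hydrolase abundant in neurons, was detected on neither array.

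GDAP1, a protein of the mitochondrial outer membrane, was well above background in #1 siHOTAIR-transfected cells alone. It was thus counted as detected only through the array on which it was high. Its spots read 69.3 and 52.4, against 23.9 and 33.2 in siGFP-transfected cells, without overlap. With its siGFP signal set at the lowest signal well above background on that array (28.6), GDAP1 was 2.04-fold higher. This is not a lower limit, since its siGFP spot of 33.2 was not called well above background. The log2 ratios of its spots were 1.49, in the first block of rows, and 0.61, outside it. Without the spots of this block the ratio was 0.61 and no neuronal gene was at least 2-fold higher. When the background was corrected by normexp with an offset of 50, the ratio of GDAP1 was 0.33.

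**Figure D2:**
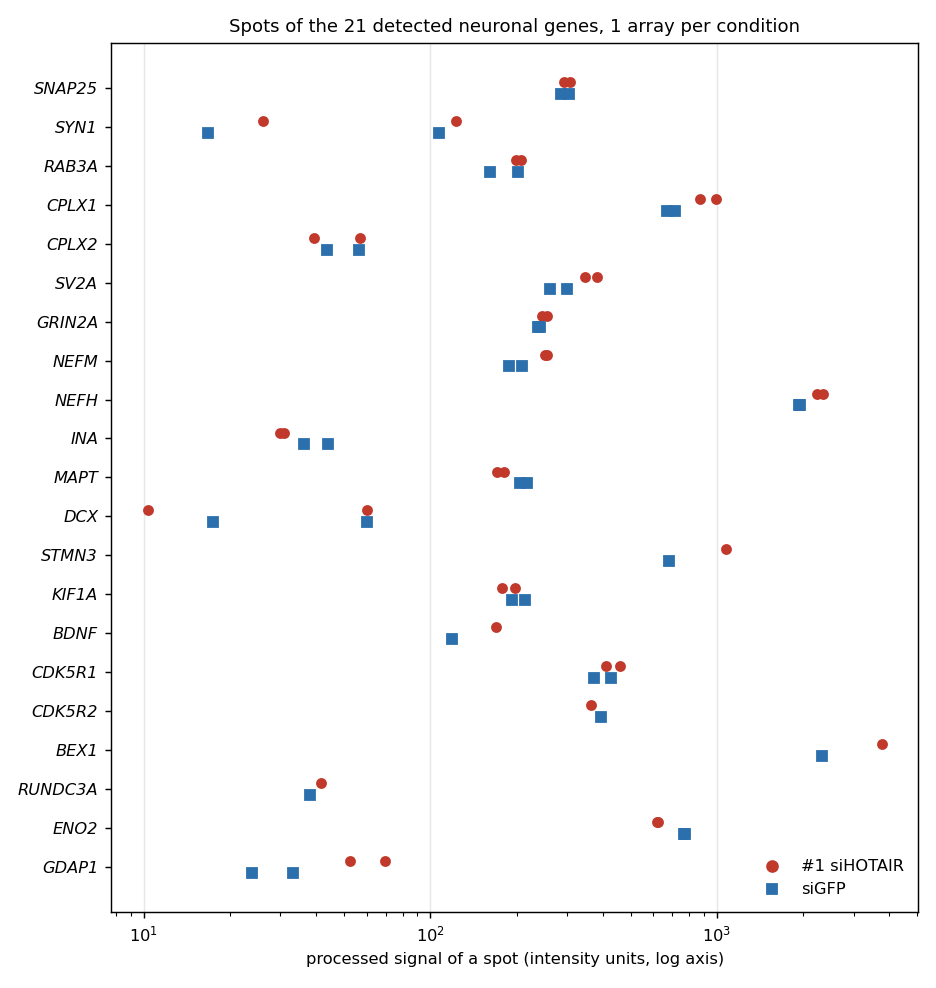
Processed signal of each spot on a log axis for the probe from which each of the 21 detected neuronal genes was read, 1 array per condition. Red circles are #1 siHOTAIR-transfected and blue squares are siGFP-transfected cells. Signals are shown before scaling, where among genes with 2 spots the circles lie to the right of both squares in CPLX1, SV2A, GRIN2A, NEFM, NEFH and GDAP1 and to the left in ENO2, MAPT and INA, while the spots of SYN1 and of DCX are spread within each array.

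The 13 genes detected on neither array had signals of 8.46 to 13.1 in #1 siHOTAIR-transfected and 6.44 to 17.8 in siGFP-transfected cells. Their median log2 ratio was 0.35, and that of all 6056 named genes well above background on neither array was 0.34. The ratios of such signals are thus offset on these arrays, with median signals over all such genes of 9.32 and 7.33. Taken without a filter on dim signals, 23 of the 34 genes were above 0 and their median was 0.25, against 59.9% and 0.11 over all named genes. No fold was computed for the 13 genes, and their transcripts were not detectable at this signal over background.

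**Figure D3:**
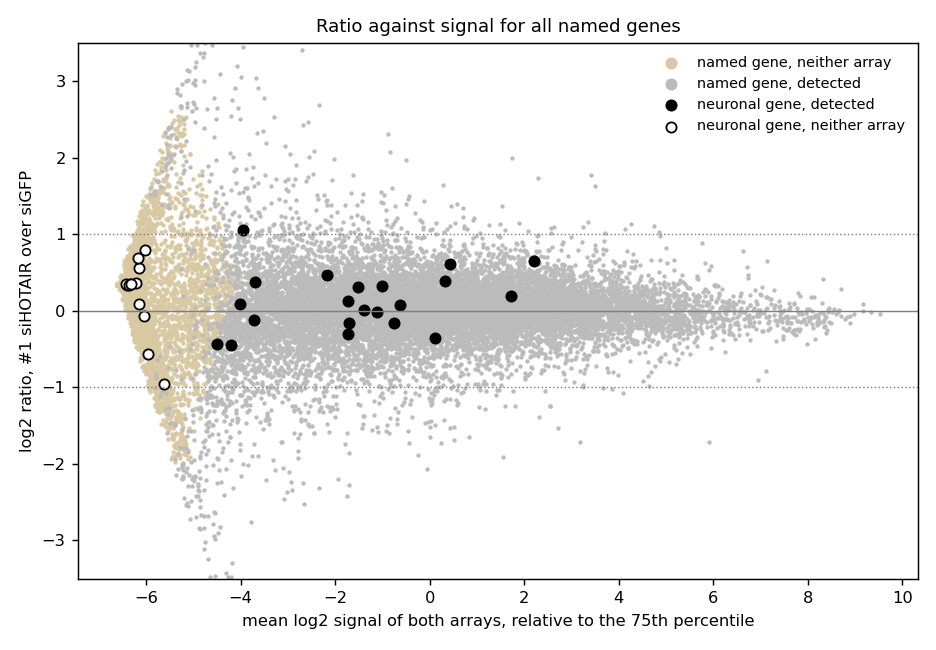
Log2 ratio against the mean log2 signal of both arrays relative to the 75th percentile, for all named genes and the 34 neuronal genes. Black points are detected neuronal genes and white points are those well above background on neither array. The white points sit at the dim end, where the median ratio of all genes is 0.34, and 45 genes with ratios beyond 3.5 are outside the plot.

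REST itself read 255 and 267 in #1 siHOTAIR-transfected and 273 and 269 in siGFP-transfected cells (log2 ratio -0.10, measurement SD 0.11). Of the list of REST and its corepressors, 8 of 9 genes were detected, with a median of -0.03 and 4 on each side of 0. The largest difference in this list was that of RCOR2, a CoREST family member, with 3150 and 1672 at 1 spot (log2 ratio 0.87). SRRM4, the splicing factor that inactivates REST in neurons, was detected on neither array. None of the list differed 2-fold.

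A second list of 24 other REST-regulated neuronal genes stood higher than the 34 genes. Of its 12 detected genes, 10 were above 0 (83.3%), against a background of 52.3%, and the median was 0.50. At least 2-fold higher were 4, against a background of 2.72%, and none was as much lower, against 3.39%. The genes that stood highest in the shorter REST list, VGF among them, belong to this list. Its counts and median thus rest in part on values known when it was chosen, and they are a description only. VGF, a secreted neuropeptide precursor, read 13218 and 12560 in #1 siHOTAIR-transfected and 3755 and 3537 in siGFP-transfected cells, 3.42-fold higher. KCNC1, a fast potassium channel, read 514 and 218 at 1 spot (log2 ratio 1.19), and another of its probes read 162 and 67.8. DISP2, a Dispatched family protein, read 1287 and 579 at 1 spot (log2 ratio 1.11). CHGA, chromogranin A of secretory granules, named after its values were seen, read 75.4 and 69.1 against 7.57 and 13.7. It was well above background in #1 siHOTAIR-transfected cells alone, and 2.44-fold higher with its siGFP signal set at 28.6. CHGA was thus counted as detected only through the array on which it was high. The difference between the lists was not tested, since values of this contrast were known when both were chosen.

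Paralogs and binding partners of the neuronal genes were read as a further list of 50 genes. Of the 34 detected, 24 were above 0 (70.6%), against a background of 52.3%, and the median of 0.09 was close to that of the neuronal genes. Those at least 2-fold higher were KIF5A and VAMP1, named after their values were seen, against a background of 2.72%. None was at least 2-fold lower, against a background of 3.39%. KIF5A, a kinesin of axonal transport, read 64.3 and 136 in #1 siHOTAIR-transfected and 22.2 and 27.2 in siGFP-transfected cells. With its siGFP signal set at 28.6, the difference was 3.16-fold. VAMP1, a vesicle SNARE, was read from 8 spots in #1 siHOTAIR-transfected and 9 in siGFP-transfected cells after outliers were left out, with mean signals of 71.3 and 23.6. With its siGFP signal set likewise, its difference was 2.41-fold. Both were well above background in #1 siHOTAIR-transfected cells alone, and so were counted as detected only through the array on which they were high. No gene of this list that was well above background on both arrays differed 2-fold. Among all genes well above background on both arrays, 1.40% were at least 2-fold higher. The SNARE partners STX1A and VAMP2 of SNAP25 lay near 0, with log2 ratios of 0.08 and -0.06.

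**Figure D4:**
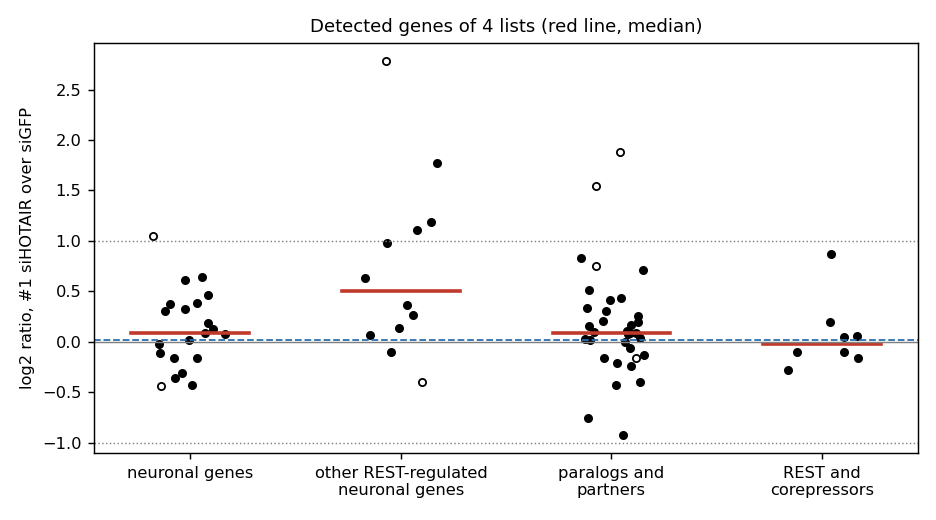
Log2 ratio of each detected gene in the neuronal genes and in 3 further lists, with horizontal jitter. Open points mark genes well above background on 1 array alone and filled points those on both, the red line is the median of a list and the dashed line that of all detected genes. The medians are 0.08, 0.50, 0.09 and -0.03 from left to right.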

How the data were processed

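SBC-3 cells transfected with #1 siHOTAIR or siGFP were measured on 1 one-colour array each, and groups were taken from the sample labels. The authors hybridized Cy3-labelled RNA to Agilent arrays and extracted spots with Agilent Feature Extraction 10.10.1.1. The deposited intensity is background-subtracted and detrended, with very low values replaced by a surrogate, and it was not normalized between arrays. A deposited value table holds the background-subtracted intensity of the same arrays. The P-value and gene ontology steps of the methods could not be repeated with 1 array per condition.

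From the deposited intensity, a log2 value was taken and set against the array's 75th percentile over 58717 spots that are not controls (650.3 for #1 siHOTAIR and 629.9 for siGFP). Spots marked as outliers were removed, and each probe was read as the mean of its spots. Accessions were matched to RefSeq gene names (GRCh38.p14), which named 58.5% of 42402 probes. For a gene well above background on 1 array only, a bound was set by replacing a dim signal with the lowest such spot of its array where it was lower. It is not a strict limit, since some brighter spots were not called well above background. The measurement SD came from probes with 10 spots in 6 bins of level. The number of arrays limits the precision, and no P-value was computed. The steps were tested on simulated data.

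The 34 genes and all lists were chosen with earlier results of these data known. Every neuronal gene was to be accounted for, with HOTAIR, REST and, of the other lists, genes at least 2-fold different and well above background on both arrays. Some list genes are not reported here by name. The alternatives were 4 other scalings, 2 background corrections, the value table with a floor of 10, 2 other filters, the median of a gene's probes, the bound for dim signals, leaving out a first block of rows that held 37.5% of the spots, and limits of 1.5-fold and 3-fold. Python 3.11.15, pandas 2.3.3, numpy 2.4.6 and matplotlib 3.10.9 were used, with limma 3.58.1 in R 4.3.3 for normexp.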

Additional observations from a re-analysis of the deposited data

How the results depend on the processing

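With 1 array per condition, no setting gives an error between cultures or arrays, and signal over background limits the 13 genes detected on neither array. Over 12 settings, 247 values of single genes were computed, of which 218 moved by less than 1 measurement SD and 29 moved by more. Part of the 218 could not move. The 2 other filters left each ratio as it was, and the bound for dim signals could alter only INA and GDAP1. GDAP1, the only gene that differed 2-fold as reported, stayed above 0 in each setting that gave it a value. Of the 21 detected genes, 15 kept the side of 0 in each setting that gave them a value, 9 above and 6 below, with GDAP1 and INA lacking a value under the filter on both arrays and DCX without the first block of rows. BDNF, CPLX2, GRIN2A, NEFH, SNAP25 and SYN1 did not keep it. The count of neuronal genes at least 2-fold higher, 1 as reported, was 0 with normexp and an offset of 50, with the uncorrected signal, with genes well above background on both arrays only, without the first block of rows and at 3-fold, and it was 3 at 1.5-fold. The count at least 2-fold lower was 0 in all 14 settings. The count above 0, 13 of 21 as reported, was 23 of 34 without a filter on dim signals, where dim ratios are offset. When a gene was read as the median of its probes, it was 11 of 21, and 52.9% of all genes were above 0. When scaled to the spike-in RNA, it was 15 of 21, and 67.9% of all genes were above 0. The median log2 ratio, 0.08 as reported, was 0.25 without a filter and 0.22 when scaled to the spike-in RNA, a scaling that moved the median of all detected genes from 0.02 to 0.16. This scaling shifts every log2 ratio by the same amount. The median of the neuronal genes therefore had to stay 0.07 above that of all genes, as in the reported scaling. When a gene was read as the median of its probes, the median was 0.01, below the 0.02 of all genes. In that setting BDNF read -0.30 and NEFH -0.09. Without the first block of rows, 18 genes were detected. SYN1 then had no spot, and the remaining spots of DCX and GRIN2A were not well above background. No paired analysis was possible because each condition had 1 array.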
